A study of Mus musculus with 6 samples.

Results

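The genes described here encode lectin-like receptors named for natural killer (NK) cells and also made by CD8+ T cells. They were chosen by name, and 5 of the 6 names on the list were rows of the count table of 14481 genes: Klrk1, Klrd1, Klrc1, Klrb1f and Klre1. Klrg1 was not analysed here. The libraries came from sorted CD8+ T cells of mice with wild-type (WT) genotype. All cells were activated with plate-bound anti-CD3 and soluble anti-CD28, each at 1 µg/ml, and interleukin 2 at 0.1 µg/ml in RPMI with serum. On day 1, conditioned medium (CM) was added from pSTAT3+ astrospheres (STAT3+ CM, 3 libraries) or pSTAT3- astrospheres (STAT3- CM, 3 libraries), and RNA was taken on day 3. STAT3 status therefore belongs to the cells that conditioned the medium, and the T cells of both groups were WT. The labels give no strain, age or number of mice, and no library without CM was analysed here. They also do not say whether the replicates came from different mice or culture wells, so p-values reflect only variation among these libraries, which may be technical.

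These receptors are type II membrane proteins with a C-type lectin-like domain that binds proteins rather than sugars. Klrk1 encodes NKG2D, an activating receptor for stress-induced relatives of MHC class I, which signals through the adapter DAP10 (gene Hcst) and, in mouse, also DAP12 (Tyrobp). Klrd1 encodes CD94, which forms a heterodimer with NKG2A (Klrc1) that inhibits, or with NKG2C (Klrc2) that activates. Both heterodimers recognise the non-classical class I molecule Qa-1 (H2-T23). Klre1 encodes NKG2I, which in mouse pairs with the products of Klri1 and Klri2. Klrb1f encodes NKR-P1F, a receptor for Clr proteins such as Clr-g (Clec2i). On CD8+ T cells, NKG2D is known as a costimulator and CD94/NKG2A as an inhibitory receptor that appears after activation.

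All 5 genes lie on mouse chromosome 6, and in the GRCm38 annotation 4 of them stand within 1 run of lectin receptor genes. In order along the chromosome that run is Klre1, Klrd1, Klrk1, Klrc3, Klrc2, Klrc1, Klri1 and Klri2, with Klre1 and Klrd1 on the plus strand and the rest on the minus strand. Klrb1f lies apart, on the plus strand, with Clec2f and Clec2d as its nearest neighbours among the genes in the table. No exon of the 5 genes overlapped an exon of another annotated gene. Sequence sharing with other genes was largest for Klrc1 among the 5: 40.3% of the 50-base windows of its longest transcript also occurred in a transcript of another gene, and 38.1% in Klrc2. The share was 1.02% for Klre1 and 0 for Klrk1, Klrd1 and Klrb1f. Counts of Klrc1 and Klrc2 are therefore less certain than the others, because how the authors assigned shared reads is not given in the sources used here.

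RefSeq promoter windows of 300 bases, 250 before to 50 after the gene start in build GRCm38.p6, were found for 4 of the 5 genes (not Klrd1). They were searched on both strands for TTCNNNGAA (the STAT consensus), TGTGGT (RUNX), GGTGTGA (T-box) and TGANTCA (AP-1). The 3 windows below are shown because Klrk1 and Klrc1 were the most abundant receptor genes with a window and Klrb1f held the only STAT match. They are chr6:129623815-129624114 on the minus strand for Klrk1, chr6:129678924-129679223 on the minus strand for Klrc1 and chr6:129045651-129045950 on the plus strand for Klrb1f. Each is written 5′ to 3′ on the gene's strand, with motif matches in capitals.
Klrk1: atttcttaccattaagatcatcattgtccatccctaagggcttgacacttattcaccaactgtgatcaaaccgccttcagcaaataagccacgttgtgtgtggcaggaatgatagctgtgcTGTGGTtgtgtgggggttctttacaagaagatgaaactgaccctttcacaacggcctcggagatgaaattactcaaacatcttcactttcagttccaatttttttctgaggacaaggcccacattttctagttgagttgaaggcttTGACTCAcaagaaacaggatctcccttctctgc
Klrc1: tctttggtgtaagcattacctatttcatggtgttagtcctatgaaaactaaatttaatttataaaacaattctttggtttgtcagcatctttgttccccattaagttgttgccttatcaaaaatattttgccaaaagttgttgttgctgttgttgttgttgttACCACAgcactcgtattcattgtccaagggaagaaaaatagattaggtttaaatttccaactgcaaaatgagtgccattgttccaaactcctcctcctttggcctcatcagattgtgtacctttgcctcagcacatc
Klrb1f: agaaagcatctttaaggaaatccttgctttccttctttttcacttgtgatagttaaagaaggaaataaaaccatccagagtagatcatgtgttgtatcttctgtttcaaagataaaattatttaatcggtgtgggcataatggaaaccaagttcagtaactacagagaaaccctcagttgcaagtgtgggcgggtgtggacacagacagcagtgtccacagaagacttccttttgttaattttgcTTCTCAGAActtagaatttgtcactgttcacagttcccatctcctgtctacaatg
The Klrk1 window held a RUNX match at position -129 from the gene start and an AP-1 match at position 17. The Klrc1 window held a RUNX match at -87, written in capitals as its reverse complement, and the Klrb1f window a STAT match at -5. None of the matches overlapped. Klre1 had 2 windows, of which the upstream one held a RUNX match at -229 and the other none. No T-box match was in any of these windows. Of all 32851 promoter windows of that length, 16.8% held the RUNX letters, 8.3% the STAT letters, 7.81% the AP-1 letters and 3.98% the T-box letters. A match is a description of the letters only.

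Total counts ran from 43346089 to 53630514 per library, and 1 read corresponded to 0.0181 to 0.024 CPM. CPM here is the read count per 1000000 reads of the library, after its total is multiplied by its TMM scaling factor. The 7 CD8 T cell markers were all present, with Cd8a at 1064, 858 and 801 CPM in STAT3+ CM and 782, 822 and 937 CPM in STAT3- CM. Cd4 lay between 0.66 and 1.62 CPM in all 6 libraries. STAT3- CM replicate 3 and STAT3+ CM replicate 1 were taken as outlying from an earlier principal component analysis of these libraries. That analysis was not repeated here, and receptor values are also given without both libraries. In bulk RNA, fewer cells carrying a transcript and less transcript per cell cannot be told apart.

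To compare levels between genes, CPM was divided by the length of each gene's longest annotated transcript in kilobases (kb). The CD94 transcript had the highest mean, those of NKG2A and NKG2D followed, and the other genes were far lower. Klrd1 averaged 98.1 ± 16.9 CPM per kb in STAT3+ CM and 80.7 ± 13.8 in STAT3- CM (SD, n = 3 each). Klrc1 averaged 50.1 ± 12.7 CPM per kb in STAT3+ CM and 48.4 ± 10.1 CPM per kb in STAT3- CM. Klrk1 averaged 38.8 ± 6.54 CPM per kb in STAT3+ CM and 31.6 ± 13.2 CPM per kb in STAT3- CM, an overlap with Klrc1. Klre1 averaged 3.15 ± 0.84 CPM per kb in STAT3+ CM and 3.20 ± 0.799 CPM per kb in STAT3- CM. Klrb1f averaged 0.28 ± 0.042 CPM per kb in STAT3+ CM and 0.443 ± 0.14 CPM per kb in STAT3- CM, the lowest of the 5. Over all 6 libraries the lowest Klrd1 value, 70.5 CPM per kb, lay above the highest of Klrc1, 64.7. With mean transcript length these genes overlapped instead, at 96.6 to 160 CPM per kb for Klrd1 and 78.9 to 123 for Klrc1, and Klrc1 was above Klrd1 in STAT3+ CM replicate 3. Klrc1 (41.4 to 64.7 CPM per kb) and Klrk1 (19.2 to 45.5) overlapped in their ranges over the 6 libraries. Within libraries Klrc1 was above Klrk1 in 5 of the 6, all but STAT3+ CM replicate 1, and this difference was not tested. Klrk1 stood clear of Klre1, whose highest library had 4.12 CPM per kb, and Klre1 clear of Klrb1f, whose highest had 0.558. Klrc2 and Klri2, whose products pair with CD94 and NKG2I, were low: Klrc2 lay at 1.09 to 2.96 CPM per kb and Klri2 at 2.19 to 4.36. The adapter gene Hcst overlapped Klrk1, at 25.9 to 46.9 CPM per kb, and Tyrobp lay below both at 0.571 to 2.32. With mean transcript length Hcst ran from 27.8 to 50.4 CPM per kb and Klrk1 from 36.1 to 85.4.

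**Figure D1:**
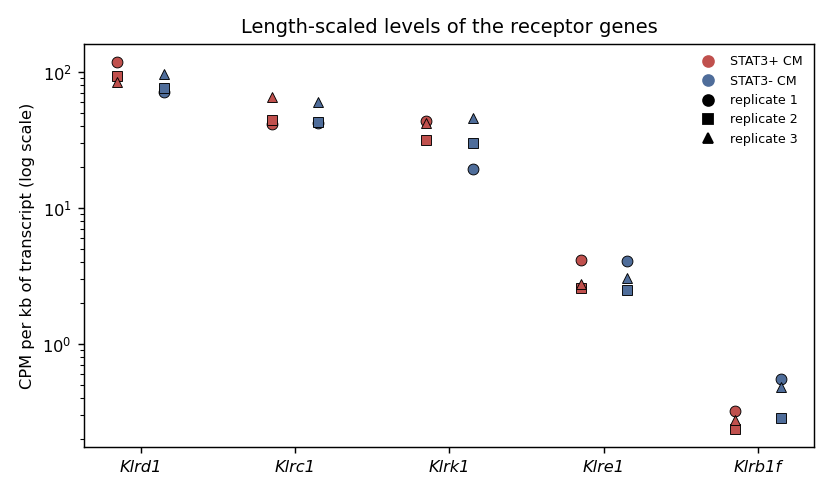
CPM per kb of the longest annotated transcript (log axis) for the 5 receptor genes, 1 point per library, STAT3+ CM left of STAT3- CM for each gene. Klrd1 lies highest, Klrc1 and Klrk1 overlap, and Klre1 and Klrb1f lie below 5 CPM per kb.

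The design asks how the secretome of pSTAT3+ against pSTAT3- astrospheres affects activated CD8+ T cells. The libraries of the media overlapped for each of the 5 receptor genes, and none of these genes was called as different. With 3 libraries per group this does not show that their levels were equal. By edgeR's quasi-likelihood test with adjustment over all 14319 genes tested, 0 of the 5 passed an adjusted p of 0.05, and 0% of all genes did. At an unadjusted p under 0.05 stood 0 of the 5 receptor genes, against 3.64% of all genes (1.34% higher and 2.3% lower in STAT3+ CM). In 0 of the 5 did the 3 libraries of STAT3+ CM lie apart from the 3 of STAT3- CM, against 7.95% of all genes. Log2 fold changes set STAT3+ CM over STAT3- CM and carry their standard error (SE) and 95% interval.

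Klrk1, which encodes the activating receptor NKG2D, varied most among the 3 abundant receptor genes in STAT3- CM and least in STAT3+ CM, by coefficient of variation. It stood at 141, 102 and 137 CPM in STAT3+ CM, against 62.7, 97.8 and 148 CPM in STAT3- CM. STAT3- CM replicate 1 was the lowest of all libraries and STAT3- CM replicate 3 the highest, so the STAT3+ CM values lay inside the STAT3- CM range. The log2 fold change was 0.30 (SE 0.27, interval -0.30 to 0.90, adjusted p = 0.989 by edgeR). It was 0.04 without STAT3- CM replicate 1 (adjusted p = 1 by edgeR) and 0.66 without STAT3- CM replicate 3 (adjusted p = 0.483 by edgeR), so either library moved it by more than 1.5 times. Its coefficient of variation, the SD over the mean, was 16.9% in STAT3+ CM and 41.8% in STAT3- CM. That of Klrd1 was 17.2% in STAT3+ CM and 17.1% in STAT3- CM. Klrc1 had 25.4% in STAT3+ CM and 21.0% in STAT3- CM, beside medians over all genes tested of 15.1% in STAT3+ CM and 13.5% in STAT3- CM.

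The libraries of both media overlapped for each chain of the Qa-1 receptor. Klrd1, the shared CD94 chain, stood at 108, 85.3 and 77.6 CPM in STAT3+ CM, against 64.8, 69.1 and 88.6 CPM in STAT3- CM. Only STAT3- CM replicate 3 reached into the STAT3+ CM range. The log2 fold change was 0.28 (SE 0.16, interval -0.08 to 0.64, adjusted p = 0.989 by edgeR), 0.14 without STAT3+ CM replicate 1 and 0.43 without STAT3- CM replicate 3. Klrc1, the inhibitory NKG2A chain, stood at 82.1, 87.6 and 128 CPM in STAT3+ CM, against 83.7, 85.0 and 119 CPM in STAT3- CM. The groups overlapped almost fully, and in each group replicate 3 stood above the other libraries. Its log2 fold change was 0.05 (SE 0.20, interval -0.39 to 0.49, adjusted p = 0.997 by edgeR), and it turned to -0.18 without STAT3+ CM replicate 3.

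Klre1 and Klrb1f were the low receptor genes. Klre1 stood at 9.91, 6.25 and 6.61 CPM in STAT3+ CM, against 9.80, 6.02 and 7.30 CPM in STAT3- CM. Replicate 1 was the highest library in each group, and the means, 7.59 ± 2.02 CPM in STAT3+ CM and 7.71 ± 1.92 CPM in STAT3- CM, lay within the SD of each other (log2 fold change -0.02, SE 0.25, interval -0.57 to 0.52, adjusted p = 0.999 by edgeR). The log2 fold change was 0.19 without STAT3- CM replicate 1. Klrb1f rested on few reads, with counts of 25, 17 and 26 in STAT3+ CM, against 43, 23 and 38 in STAT3- CM. That is 0.551, 0.408 and 0.469 CPM in STAT3+ CM, against 0.949, 0.49 and 0.823 CPM in STAT3- CM. STAT3- CM replicate 2 lay among the STAT3+ CM libraries and the other two STAT3- CM libraries above them. The log2 fold change was -0.65 (SE 0.35, interval -1.43 to 0.12, adjusted p = 0.989 by edgeR), the largest in size of the 5 and the one with the widest interval.

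Both libraries taken as outlying were also omitted together. The log2 fold change was then 0.57 for Klrk1 (SE 0.21), 0.28 for Klrd1 (SE 0.13) and 0.36 for Klrc1 (SE 0.18). It was -0.69 for Klrb1f (SE 0.43) and -0.30 for Klre1 (SE 0.24). Klrk1 then had an unadjusted p of 0.0231 and an adjusted p of 0.585 by edgeR, with 1003 of all genes at an unadjusted p under 0.05. In this setting 0 of the 5 genes passed the threshold. Without STAT3- CM replicate 3 alone, edgeR gave Klrk1 an unadjusted p of 0.00933 and an adjusted p of 0.483, and Klrd1 an unadjusted p of 0.0201 and an adjusted p of 0.612, with 938 of all genes at an unadjusted p under 0.05. With limma-voom and sample quality weights Klrk1 had an unadjusted p of 0.035 and an adjusted p of 0.599, and Klrd1 an unadjusted p of 0.0185 and an adjusted p of 0.507, with 1152 of all genes under 0.05. Without STAT3- CM replicate 2, edgeR gave Klrb1f an unadjusted p of 0.0338 and an adjusted p of 0.968, with 465 of all genes under 0.05.

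**Figure D2:**
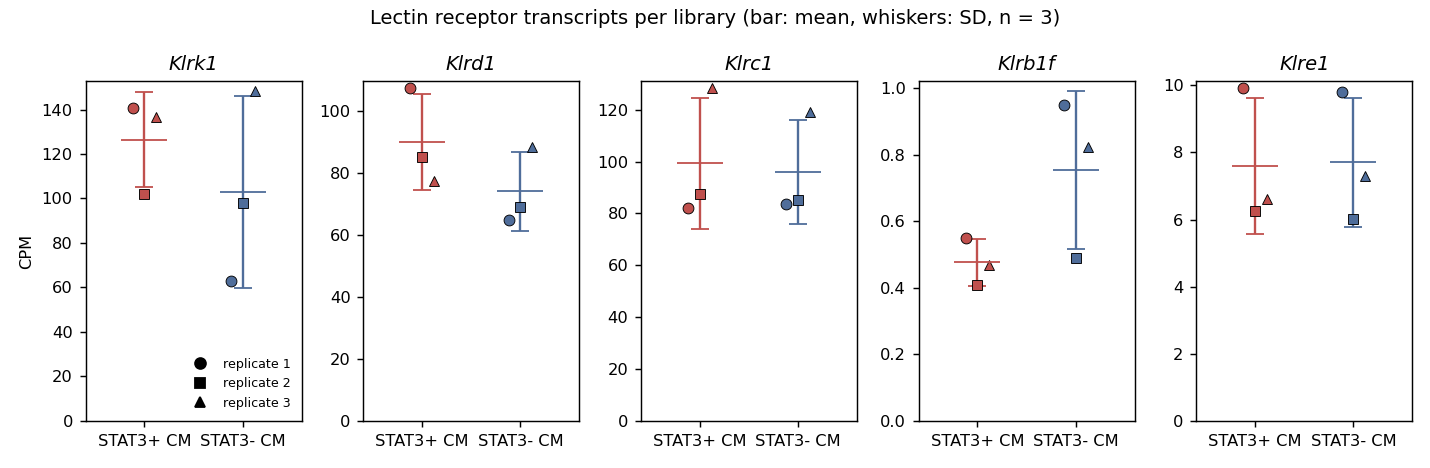
CPM of each receptor gene (axis from 0, 1 panel per gene) in the 3 libraries of STAT3+ CM, left, and of STAT3- CM, right, with the mean as a bar and the SD as whiskers. The groups overlap in all 5 panels, and Klrk1 in STAT3- CM runs from 62.7 to 148 CPM.

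Ratios of counts within a library need no scaling between libraries. The log2 ratio of Klrc1 to Klrd1, the inhibitory chain to its partner, was -0.39, 0.04 and 0.73 in STAT3+ CM, against 0.37, 0.30 and 0.43 in STAT3- CM. STAT3+ CM held both the lowest and the highest of the 6 ratios, with a mean of 0.13 ± 0.56, while STAT3- CM averaged 0.37 ± 0.06 (SD, n = 3 each). The difference of -0.24 was smaller in size than the SD of STAT3+ CM but larger than that of STAT3- CM. A two-sided exact permutation test gave p = 0.6, where 3 against 3 libraries can reach 0.1 at the lowest. The log2 ratio of Klrk1 to its adapter gene Hcst was 2.76, 2.56 and 3.58 in STAT3+ CM, against 2.05, 3.04 and 3.61 in STAT3- CM. In both media replicate 3 had the highest ratio, and the groups overlapped. The means were 2.97 ± 0.54 in STAT3+ CM and 2.90 ± 0.79 in STAT3- CM, a difference of 0.06 (two-sided exact permutation test, p = 1). The first difference was 0.02 without STAT3+ CM replicate 1, and the second -0.24 without STAT3+ CM replicate 3 and -0.36 without STAT3- CM replicate 1. These were the only ratios tested, and since neither raw p was below the threshold, adjustment over both changes no call.

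**Figure D3:**
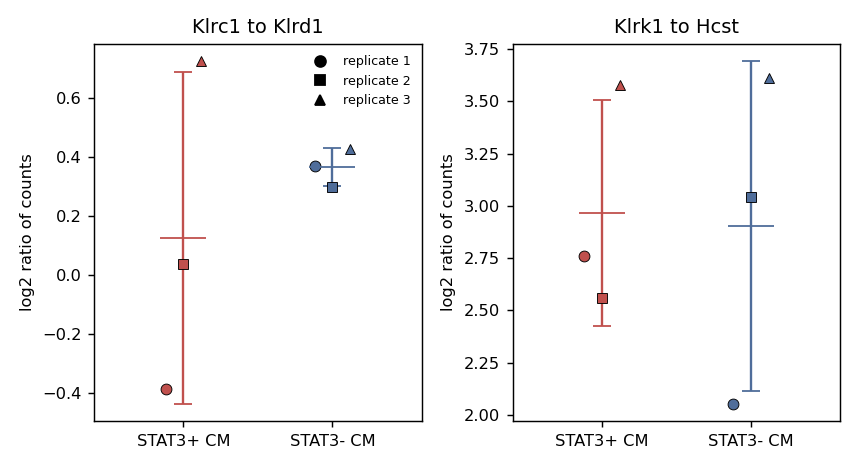
Log2 ratio of read counts of Klrc1 to Klrd1 (left panel) and of Klrk1 to Hcst (right panel) in each library, STAT3+ CM left of STAT3- CM, with the mean as a bar and the SD as whiskers. The Klrc1 to Klrd1 ratios of STAT3+ CM run from -0.39 to 0.73, and the STAT3- CM ratios lie inside that range.

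The receptor genes differed in which libraries were high. Relative to each gene's mean of log2 CPM over the 6 libraries, Klrk1 was above it in 3 libraries: STAT3+ CM replicate 1 by 0.35, STAT3+ CM replicate 3 by 0.31 and STAT3- CM replicate 3 by 0.43. It was lowest in STAT3- CM replicate 1 (-0.81). Klrc1 was above its mean only in STAT3+ CM replicate 3 (0.42) and STAT3- CM replicate 3 (0.31). Klre1 was above its mean only in STAT3+ CM replicate 1 (0.40) and STAT3- CM replicate 1 (0.39). The smallest root mean square difference between such profiles was 0.292, for Klrk1 and Klrd1, and the largest 0.69, for Klrk1 and Klrb1f.

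Of the neighbours of Klrc1, Klrc2, Klrc3 and Klri2 were highest in the same libraries as it, replicate 3 of each group, while Klra5 and Klra6 were not. Klrk1 was highest in replicate 3 of STAT3- CM, and in STAT3+ CM its replicates 1 and 3 were close, at 141 and 137 CPM. Klrc3 rested on 15, 5 and 20 reads in STAT3+ CM, against 4, 9 and 20 in STAT3- CM. Of its 50-base windows, 41.1% also occurred in another gene. Klra6 was highest in replicate 1 of each group, at 3.11 CPM in STAT3+ CM and 2.08 CPM in STAT3- CM. Klrc2 stood at 4.12, 3.46 and 8.43 CPM in STAT3+ CM, against 4.86, 4.36 and 9.42 CPM in STAT3- CM, and replicate 3 was again the highest of each group. Part of its sequence is shared with Klrc1, and what shared reads add to this was not tested. Klri2, the partner of NKG2I, was also highest in replicate 3 of each group, at 17.0 CPM in STAT3+ CM and 14.4 CPM in STAT3- CM. Klre1 itself was highest in replicate 1 of each group, so it and Klri2 differed in their libraries. The log2 fold changes of Klrc2 (-0.19, SE 0.38) and Klri2 (-0.005, SE 0.27) lay within 1 SE of 0.

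The Ly49 genes (Klra), lectin receptors for MHC class I, stood high in other libraries. Of 9 Klra genes in the table, 9 were highest in replicate 1 among STAT3- CM libraries and 5 in replicate 1 among STAT3+ CM libraries. Some of these rest on few reads: in STAT3- CM, Klra8 had 15, 5 and 8 reads and Klra4 23, 11 and 10. Klra5 was nearly level there, at 0.684 CPM in replicate 1 and 0.681 CPM in replicate 2. The share of all genes highest in replicate 1 and the sequence shared among Klra genes were not examined. Klra7 stood at 9.43, 5.38 and 2.98 CPM in STAT3+ CM, against 9.01, 4.58 and 5.09 CPM in STAT3- CM. Klrb1c, which encodes NK1.1, stood at 2.45, 1.08 and 0.704 CPM in STAT3+ CM, against 2.85, 1.15 and 0.563 CPM in STAT3- CM. Replicate 1 of both groups was thus the highest library for both genes, as for Klre1 and Klrb1f.

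All 10 NK cell markers on the list were in the table. The summed level of the 9 other than Eomes, which CD8+ T cells also express, was 17.4, 10.0 and 6.84 CPM in STAT3+ CM, against 18.4, 9.35 and 8.86 CPM in STAT3- CM. Eomes was set apart after its values, 103 to 133 CPM, had been seen. The defining NK gene Ncr1 stood at 0.264, 0.144 and 0.0361 CPM in STAT3+ CM, against 0.397, 0.106 and 0.173 CPM in STAT3- CM. No marker was at 0 in any library. The sum was highest in replicate 1 of each group, as were Klre1, Klrb1f and 5 of the Klra genes. The markers are not independent of those genes, since 4 of the 9 are Klra genes and Klra7 is the largest term of the sum. Their part in those values was not tested.

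**Figure D4:**
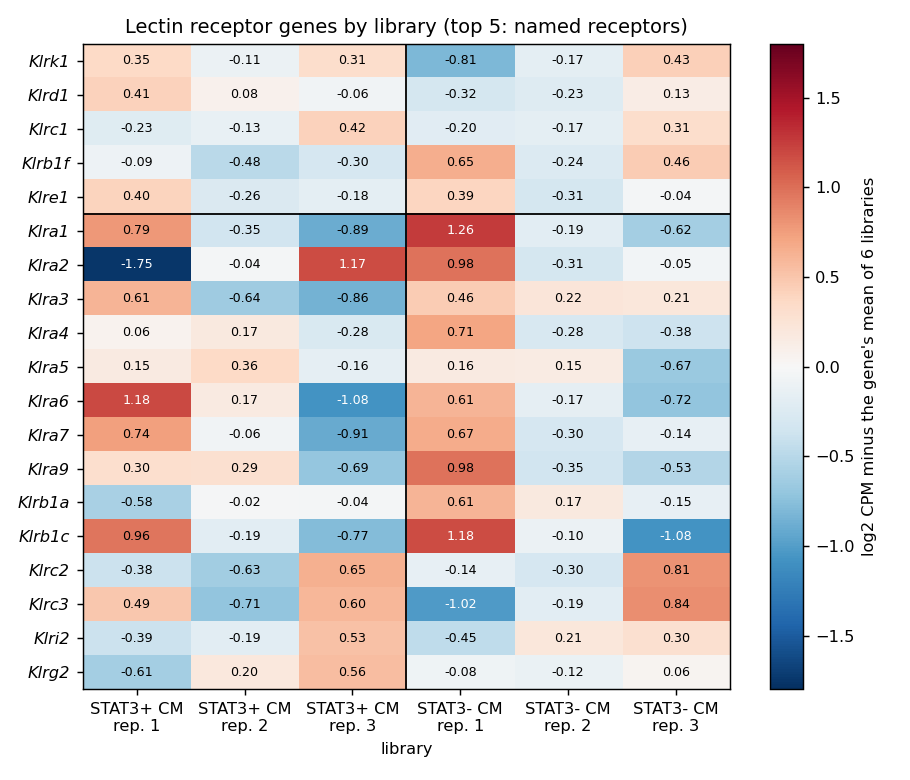
Log2 CPM of each tested lectin receptor gene minus its own mean over the 6 libraries (colour scale and printed values), STAT3+ CM libraries left of STAT3- CM libraries and the 5 named receptors above the line. Klrc1, Klrc2 and Klri2 are highest in replicate 3 of each group, and Klra1, Klra7 and Klrb1c in replicate 1.

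Of the other lectin receptors of the NK gene complex, 16 of 21 listed were in the table and 14 could be tested. Of these, 0 passed in either direction, 5 had positive and 9 negative log2 fold changes, and their median was -0.11, beside 0.0008 for all genes tested. The smallest p-values were those of Klra3 (log2 fold change -0.46, SE 0.36), Klrb1a (-0.48, SE 0.39) and Klra1 (-0.39, SE 0.55), each with adjusted p = 0.989 by edgeR.

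Among 21 adapter and signalling genes, all tested, 0 passed, 9 had positive and 12 negative values, with a median of -0.02. Hcst, the adapter of NKG2D, stood at 20.8, 17.3 and 11.4 CPM in STAT3+ CM, against 15.1, 11.9 and 12.1 CPM in STAT3- CM. STAT3+ CM replicate 3 was the lowest of all libraries and the groups overlapped (log2 fold change of 0.34 with SE 0.22, edgeR adjusted p = 0.989). Tyrobp, also an NK marker, lay at 1.39, 0.625 and 0.451 CPM in STAT3+ CM, against 0.706, 0.341 and 0.758 CPM in STAT3- CM (log2 fold change 0.42, SE 0.47). Cd247, the zeta chain of the T cell receptor, had a log2 fold change of 0.25 (SE 0.13) and Plcg2, a phospholipase, -0.33 (SE 0.17). The phosphatase genes that act below inhibitory receptors, Ptpn6 (SHP-1, 0.0002, SE 0.15) and Inpp5d (SHIP-1, 0.07, SE 0.15), lay near 0.

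A list of ligand and related genes held 23 names, of which 9 were in the table. These include the Qa-1, MULT1 and Clr-g genes, but also genes that encode no ligand of the 5 receptors: H2-D1, B2m, Tap1 and Tap2, of class I molecules and their peptide supply, and Clec2d. Of these 9, 0 passed in either direction, 6 had positive and 3 negative values, and the median was 0.10. Ulbp1, which encodes the NKG2D ligand MULT1, stood at 74.0, 53.3 and 65.5 CPM in STAT3+ CM, against 84.2, 77.8 and 87.5 CPM in STAT3- CM. All 3 STAT3+ CM libraries lay below all 3 of STAT3- CM, as in 7.95% of all genes in either direction, but the difference did not pass (log2 fold change -0.37, SE 0.14, unadjusted p = 0.0244, adjusted p = 0.989 by edgeR). H2-T23, which encodes Qa-1, stood at 410, 455 and 348 CPM in STAT3+ CM, against 349, 304 and 340 CPM in STAT3- CM. STAT3- CM replicate 1 lay just above STAT3+ CM replicate 3 (log2 fold change of 0.29 with SE 0.14, edgeR adjusted p = 0.989). Clec2i, the Clr-g ligand gene, had a log2 fold change of -0.17 (SE 0.19). Clec2d, which encodes Clr-b, a ligand of NKR-P1 receptors related to NKR-P1F, had 0.15 (SE 0.13).

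**Figure D5:**
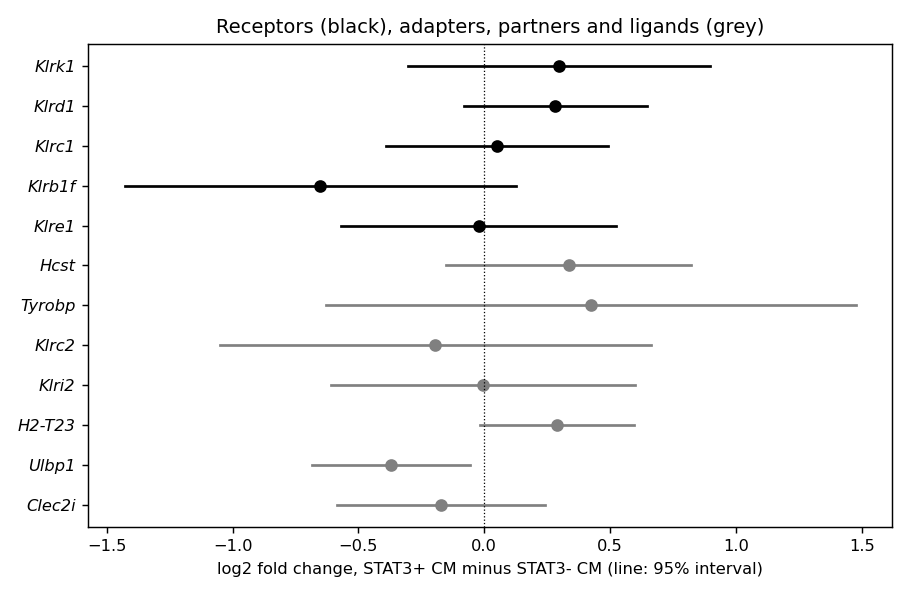
Log2 fold change, STAT3+ CM minus STAT3- CM, with its 95% interval as a line, for the 5 receptor genes (black) and for adapter, partner and ligand genes (grey). The intervals of all 5 receptor genes include 0, and Ulbp1 (-0.37) is the gene shown whose interval does not, without adjustment.

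Of 24 effector genes that accompany NK-type receptors on CD8+ T cells, 21 were tested, 0 passed, 13 had positive and 8 negative values, and the median was 0.12. At an unadjusted p under 0.05 stood 4 of the 21 (1 higher and 3 lower in STAT3+ CM), beside 3.64% of all genes. The groups did not overlap in 4 of the 21 (3 higher and 1 lower), beside 7.95% of all genes. The list was chosen with these values known, so nothing particular to it follows. Prf1, the pore-forming perforin, had 0.60 (SE 0.20), while the interleukin 18 receptor chains Il18rap and Il18r1 had -0.43 (SE 0.15) and -0.62 (SE 0.23), each with adjusted p = 0.989 by edgeR. Among 28 regulators and cytokine receptors, all tested, 0 passed, 12 had positive and 16 negative values, and the median was -0.02. Tbx21, which encodes T-bet, had the smallest p in that list, at 66.0, 92.1 and 90.5 CPM in STAT3+ CM, against 63.2, 72.5 and 50.6 CPM in STAT3- CM. STAT3+ CM replicate 1 lay below STAT3- CM replicate 2, so the groups overlapped (log2 fold change of 0.42 with SE 0.17, edgeR adjusted p = 0.989). Il15ra, the interleukin 15 receptor chain, had 0.26 (SE 0.13) and Stat5a -0.24 (SE 0.14).

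Among neighbours in gene order, Gabarapl1, an autophagy gene next to Klre1 in the table apart from a predicted gene, had a log2 fold change of -0.14 (SE 0.12). Cd69, an activation marker of the same gene complex near Klrb1f, had 0.19 (SE 0.12). BC064078, also near Klrb1f, had 0.45 (SE 0.21, adjusted p = 0.989 by edgeR). The groups did not overlap for these genes, lower in STAT3+ CM for Gabarapl1 and higher for Cd69 and BC064078. They overlapped for the other neighbours, and did not overlap in 7.95% of all genes in either direction. The genes whose library profiles were nearest were chosen from 9339 or 9340 tested genes of at least 5 CPM, by the root mean square difference of log2 CPM over 6 libraries after each gene's mean was removed. Nearest to Klrk1 were Mr1, which encodes the class I-like molecule MR1 (0.102), Rilpl1 (0.133) and the class Ib gene H2-Q10 (0.137). Nearest to Klrd1 were Fra10ac1 (0.0399), Tceal9 (0.0408) and Arhgap15 (0.0462), and nearest to Klrc1 Fbxl19 (0.0719), Ccp110 (0.076) and Klf8 (0.077). Nearest to Klre1 were Arhgef18 (0.0695), Zfp652 (0.0819) and Lrrc32 (0.113), and nearest to Klrb1f Asb2 (0.142), Ppp2r3a (0.165) and Sntb2 (0.177). Among this many genes some lie close over 6 libraries, and no test was made.

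Of 13 myeloid and dendritic cell markers 8 were in the table, with sums of 53.1 to 61.8 CPM in STAT3+ CM and 77.8 to 118 CPM in STAT3- CM, where Cd74 and MHC class II genes made up most of the sum. Cd74, the class II invariant chain, ran from 36.1 to 44.7 CPM in STAT3+ CM and from 50.7 to 94.2 CPM in STAT3- CM. Klrd1 before scaling by length ran from 77.6 to 108 CPM in STAT3+ CM, above Cd74. In STAT3- CM Klrd1 ran from 64.8 to 88.6 CPM, inside the Cd74 range. The groups did not overlap in the sum of the 8 markers. The median log2 fold change of the 7 tested was -0.53, with 1 positive and 6 negative values. H2-Aa had -1.74 (SE 0.37), Cd74 -0.94 (SE 0.21) and H2-Eb1 -0.88 (SE 0.23). The groups overlapped for the other 4: H2-Ab1, also a class II gene (0.13, SE 0.22), Itgax (-0.04, SE 0.29), Lyz2 (-0.53, SE 0.60) and Cd68 (-0.43, SE 0.46). By edgeR 0 of the 7 passed the adjusted threshold, and the part of these markers in the receptor values was not tested. Of 7 gamma delta and NKT cell markers Trdc alone was in the table, at 2.13 to 3.74 CPM in STAT3+ CM and 1.75 to 2.98 CPM in STAT3- CM. Of 5 B cell markers Cd79b alone was, at 10.9 to 11.8 CPM in STAT3+ CM and 7.40 to 10.7 CPM in STAT3- CM, so its groups did not overlap. The 4 CD4 T cell markers summed to 12.9 to 18.3 CPM in STAT3+ CM and 9.92 to 24.0 CPM in STAT3- CM. Zbtb7b made up most of that sum, at 9.30 to 15.1 CPM in STAT3+ CM and 6.29 to 20.2 CPM in STAT3- CM. Of 6 astrocyte markers 2 were in the table, Slc1a2 and Aldh1l1, with sums of 8.64 to 15.8 CPM in STAT3+ CM and 13.6 to 16.1 CPM in STAT3- CM.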

How the data were processed

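The authors deposited raw read counts in 1 table, with genes as rows and the 6 libraries as columns. Per the submitters' processing notes, FastQC, TopHat2 2.0.10, Bowtie 1.0.0, SAMtools 0.1.19 and Cufflinks 2.2.1 were used with build GRCm39. Which program counted reads, with which annotation and strand setting, is not given in the sources used here. The lowest gene total in the table was 40, and the filter behind it is not stated.

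From these counts, filterByExpr kept 14319 genes and left out 162, and TMM factors ran from 0.9605 to 1.06. Groups were compared with edgeR 4.0.16 (R 4.3.3, robust quasi-likelihood fit, two-sided), Benjamini-Hochberg adjustment over all genes tested and a threshold of 0.05. SEs were derived by dividing the size of the log2 fold change by the square root of its F statistic. Profiles used log2 CPM with a prior count of 2, and ratios had 0.5 added to each count. Transcript lengths and gene order came from GENCODE on GRCm38, matched by symbol, and no coordinates of that annotation are printed. No 2 libraries agreed within sampling noise.

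The genes and lists were chosen with earlier results of these data known. The named genes are the receptor genes, Hcst, Tyrobp, H2-T23, Clec2d, neighbours, nearest profiles and the 3 genes of smallest p in each list. The lists of CD8, CD4 and NK cell markers did not follow that last rule, and Cd8a was given outside it. Klrg1 was on the list and was not analysed here. Klrc2, Klri2, Clec2i, Klra7, Klrb1c, Ptpn6, Inpp5d, Ncr1, Eomes, Klra4, Klra6, Klra8, H2-Ab1, Itgax, Lyz2, Cd68 and Zbtb7b were picked after their values were seen. Alternatives were other scalings, filters and tools (DESeq2 1.42.0, limma 3.58.1), the replicate number as a block, and libraries left out.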

Additional observations from a re-analysis of the deposited data

How the results depend on the processing

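Over 18 alternatives (17 for Klrb1f, which the stricter filter removed), 0 of the 5 receptor genes passed the threshold, with the lowest adjusted p at 0.483 for Klrk1, 0.507 for Klrd1, 0.659 for Klrb1f, 0.779 for Klrc1 and 0.918 for Klre1. Over all genes edgeR gave 0 calls, with 521 at an unadjusted p under 0.05. DESeq2 gave 48 calls and limma-voom with sample quality weights 16. In edgeR the count was 10 after both libraries taken as outlying were omitted (replicate 3 of STAT3- CM, replicate 1 of STAT3+ CM). With 1 library left out the count ran from 0 to 18, being 18 without STAT3- CM replicate 3 and 1 without STAT3- CM replicate 1. The cause was not tested.

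With 1 library left out, the log2 fold change ran from 0.04 to 0.66 for Klrk1, 0.14 to 0.43 for Klrd1, -0.18 to 0.24 for Klrc1, -0.26 to 0.19 for Klre1 and -0.89 to -0.45 for Klrb1f. Klrc1 and Klre1 changed sign. Klrc1 was -0.18 when STAT3+ CM lost replicate 3, -0.04 when STAT3- CM lost replicate 1 and -0.03 when it lost replicate 2. Klre1 was 0.09 when STAT3+ CM lost replicate 2, 0.07 when it lost replicate 3 and 0.19 when STAT3- CM lost replicate 1. The difference in log2 ratio ran from -0.54 to 0.0165 for Klrc1 to Klrd1 (positive without STAT3+ CM replicate 1) and from -0.36 to 0.42 for Klrk1 to Hcst (-0.24 without STAT3+ CM replicate 3, -0.36 without STAT3- CM replicate 1). Under mean instead of longest transcript length, levels over 6 libraries were 122 CPM per kb for Klrd1, 93.8 for Klrc1, 66.0 for Klrk1, 4.95 for Klre1 and 0.705 for Klrb1f. The means kept their order, but Klrc1 exceeded Klrd1 in STAT3+ CM replicate 3, so these genes no longer stood apart.

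The labels do not say whether equal replicate numbers mark paired libraries. After each group's mean was removed, equal numbers had correlations across genes of -0.261, 0.281 and 0.182. Those of unequal numbers ran from -0.495 to 0.423. With 3 libraries per group these values cannot decide whether libraries were paired. With the replicate block edgeR called 0 genes and 0 receptor genes (Klrk1 0.36, Klrd1 0.28, Klrc1 0.04, Klrb1f -0.66, Klre1 -0.03). The paired differences in log2 ratio were -0.24 (exact sign-flip test, p = 0.75) and 0.06 (p = 1), where 3 pairs can reach 0.25 at the lowest. Depth limits Klrb1f, which had at most 43 reads in a library.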
